A study of Homo sapiens with 6 samples.

Results

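The 44 genes described here encode proteins that build and run the mitotic spindle and divide the cell. They comprise cyclins, CDK1 and CDC25 phosphatases (6 genes), the centrosome and spindle kinases (2), the chromosomal passenger complex (2), the spindle checkpoint (5), partners and a substrate of the anaphase-promoting complex (3), the centromere and kinetochore (5), kinesin motors (9), spindle microtubule-associated proteins (7), cytokinesis (2) and chromosome structure (3). They were chosen by gene symbol, and a probe set counted for a gene when the platform annotation gave it that symbol and no other. All 44 had at least 1 such probe set and all 44 were above the floor defined below, of 19775 genes with a probe set and 10791 above the floor. RNA came from DU145, an established human prostate cancer cell line, kept in medium with charcoal-stripped serum and stimulated with 25 ng/ml HGF, hepatocyte growth factor, which binds the tyrosine kinase c-MET, for 2, 8 or 24 hours, or given vehicle for the same times. Each of these 6 conditions was read on 1 Affymetrix U133plus2.0 array, so the ratios at each time carry neither a replicate error nor a p-value. The 3 vehicle arrays differ in time, and the differences among them are the only available yardstick. HGF came in 1 dose on 1 cell line, and in a culture a smaller share of cells in mitosis and less of a transcript per cell cannot be told apart.

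Mitosis is driven by CDK1 bound to cyclin B, and its genes are transcribed mainly in the late phases of the cell cycle, so that their transcripts accumulate towards division and are low in resting cells. Kinetochores join chromosomes to microtubules, kinesins move and focus those microtubules, and the spindle checkpoint holds the anaphase-promoting complex, a ubiquitin ligase, in check until every chromosome is attached. Many promoters of such genes carry a CCAAT box, bound by NF-Y, and a cell cycle homology region (CHR), to which the DREAM and MuvB complexes bind.

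Deposited intensities were scaled to a mean of 150 per array, and scaled values under 30, the floor, were raised to 30 before log2. Log2 ratios were averaged over the probe sets of a gene. A gene was called lower or higher when at least 1 probe set differed by 2-fold or more and the mean log2 ratio was 0.50 or more in the same direction. Of the 91 probe sets of the 44 genes, 71 were above the floor on all 6 arrays, 77 on at least 1 array and 14 on none. Those 14 add a ratio of 0 to their gene's mean. On each array 33.1% to 36.7% of all probe sets exceeded the floor, and the 7 epithelial markers examined were above it on every array. Of other markers with a probe set, 1 of 4 prostate luminal (KLK3), 1 of 5 fibroblast (COL1A1), 0 of 3 leukocyte and 0 of 4 endothelial markers were above it on any array. The poly-A spike DapX-3, added to the RNA before labelling, had a scaled signal of 1630 on the HGF array of 8 hours and of 701 on the vehicle array of 8 hours, the lowest of the 6 arrays, and the part of this in the ratios was not tested. The 3' to 5' signal ratio of ACTB, a sign of RNA quality, was 1.13, 1.31 and 1.71 with HGF after 2, 8 and 24 hours, against 1.17, 1.36 and 1.63 with vehicle, so it moved with time, and its part in comparisons across times was not tested.

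The promoters of the 4 genes with the lowest ratio after 8 hours of HGF, and of PLK1 and CDC20, with the highest ratios among genes with a window, were taken from RefSeq (GRCh38.p14), from 250 bases before the start site to 50 after it. PLK1 and CDC20 were chosen after their values were seen. Capitals mark the CCAAT box, CCAAT on either strand (ATTGG on the opposite one), and the CHR, searched as TTTGAA or TTCGAA on either strand. They are shown so that genes at the 2 ends of the 8 hour response can be compared by sequence. HMMR lies at chr5:163460382-163460681, plus strand, KIF18A at chr11:28108107-28108406, minus strand, CENPE at chr4:103198294-103198593, minus strand, NUF2 at chr1:163321704-163322003, plus strand, PLK1 at chr16:23678639-23678938, plus strand and CDC20 at chr1:43358731-43359030, plus strand.
HMMR: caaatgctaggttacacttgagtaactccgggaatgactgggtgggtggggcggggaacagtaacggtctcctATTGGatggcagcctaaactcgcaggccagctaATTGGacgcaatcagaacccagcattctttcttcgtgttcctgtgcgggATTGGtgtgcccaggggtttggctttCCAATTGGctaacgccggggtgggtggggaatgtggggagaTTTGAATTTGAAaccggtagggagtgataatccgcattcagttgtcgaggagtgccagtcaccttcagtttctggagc
KIF18A: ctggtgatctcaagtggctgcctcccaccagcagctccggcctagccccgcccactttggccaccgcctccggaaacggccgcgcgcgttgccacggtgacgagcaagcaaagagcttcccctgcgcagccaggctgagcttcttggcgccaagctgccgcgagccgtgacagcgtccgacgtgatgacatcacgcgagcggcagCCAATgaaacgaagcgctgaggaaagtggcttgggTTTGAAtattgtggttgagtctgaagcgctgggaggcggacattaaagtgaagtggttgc
CENPE: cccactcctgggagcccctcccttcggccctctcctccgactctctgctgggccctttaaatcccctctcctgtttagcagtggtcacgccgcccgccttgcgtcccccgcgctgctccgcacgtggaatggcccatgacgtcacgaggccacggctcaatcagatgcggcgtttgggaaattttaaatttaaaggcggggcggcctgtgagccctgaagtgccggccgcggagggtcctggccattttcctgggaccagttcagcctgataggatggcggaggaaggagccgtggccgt
NUF2: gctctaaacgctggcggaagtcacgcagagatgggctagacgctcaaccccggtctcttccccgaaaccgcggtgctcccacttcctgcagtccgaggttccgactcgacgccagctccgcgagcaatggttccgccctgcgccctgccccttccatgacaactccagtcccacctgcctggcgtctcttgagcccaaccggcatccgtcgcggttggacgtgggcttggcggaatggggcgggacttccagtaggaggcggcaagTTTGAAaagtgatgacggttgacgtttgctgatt
PLK1: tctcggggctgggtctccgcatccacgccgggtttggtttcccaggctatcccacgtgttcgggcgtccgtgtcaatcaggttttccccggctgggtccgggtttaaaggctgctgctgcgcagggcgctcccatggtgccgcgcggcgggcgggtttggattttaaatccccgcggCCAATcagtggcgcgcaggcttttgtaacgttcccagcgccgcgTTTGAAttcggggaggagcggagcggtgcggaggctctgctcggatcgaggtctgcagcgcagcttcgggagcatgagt
CDC20: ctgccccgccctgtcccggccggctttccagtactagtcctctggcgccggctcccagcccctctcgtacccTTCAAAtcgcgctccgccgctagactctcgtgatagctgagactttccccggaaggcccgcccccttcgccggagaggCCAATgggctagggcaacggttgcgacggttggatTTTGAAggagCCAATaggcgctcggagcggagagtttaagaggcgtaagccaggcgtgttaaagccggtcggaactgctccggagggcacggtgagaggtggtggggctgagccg
HMMR held a pair of adjoining TTTGAA matches that began 28 and 22 bases before the start site, and 5 CCAAT matches, of which the CCAAT 69 bases before and the ATTGG 66 bases before overlapped. KIF18A held a CCAAT 45 bases and a TTTGAA 10 bases before the start site, and PLK1 held the same order of motifs at 73 and 29 bases before it. CDC20 held TTTGAA 65 bases before the start site between 2 CCAAT boxes that began 100 and 55 bases before it, and a TTCAAA, the CHR on the opposite strand, 178 bases before it. NUF2 held 1 TTTGAA that began 16 bases after the start site, and CENPE held neither motif in its window.

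A window was found for 38 of the 44 genes, and TTK, BUB3, TPX2, BIRC5, AURKA and UBE2C had none. Only the first window listed for each of the 38 was used, whereas the 35093 windows of all genes can include several per gene. A CHR was present in 28 of the 38 windows (73.7%), against 16.4% of all 35093 windows, and a CCAAT box in 26 (68.4%), against 34.6%. Both motifs stood in 21 windows (55.3%), against 6.37% of all windows. A common E2F motif, TTTGGCGC or TTTCCCGC on either strand, was in 3 windows (7.89%), against 2.27%. Genes that were lower after 8 hours of HGF had a CHR in 17 of 18 windows, CENPE being the exception, and the other genes in 11 of 20. The CCAAT box was in 12 of 18 windows of the lower genes and in 14 of 20 windows of the others. These matches of letters describe the windows, and no measurement of binding was made.

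Which of the mitotic genes differed between HGF-treated and vehicle-treated cells was examined first at 8 hours, where the ratios spread most. After 8 hours 19 of the 44 genes were lower with HGF and 0 were higher. Over all genes above the floor, 14.6% were lower and 4.93% higher by the same rule. The median log2 ratio of the 44 genes was -0.53, that of all genes -0.02, and single genes ranged from -2.24 for HMMR to 0.72 for UBE2C. Ratios were below 1 for 32 of the 44 genes, against 51.6% of all genes. The genes lower with HGF belonged to the motors, the kinetochore, the spindle microtubule-associated proteins, cytokinesis, condensin, the spindle checkpoint and CDK1. The spindle kinases, the passenger complex and the partners and substrate of the anaphase-promoting complex had none. With quantile normalization, 18 of the 44 genes were lower and 0 higher, but 9.30% of all genes were lower and 10.1% higher.

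**Figure D1:**
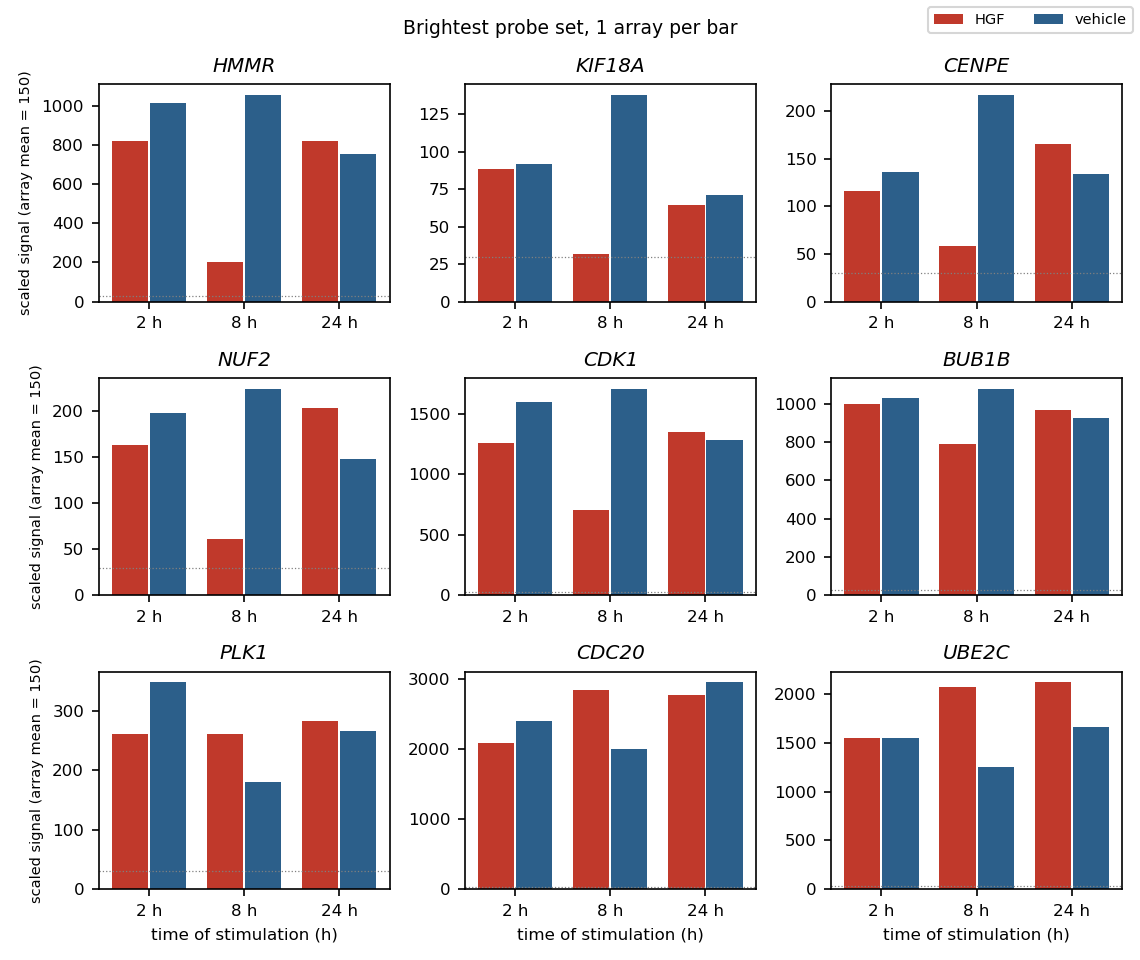
Scaled signal (array mean 150) of the brightest probe set of 9 of the 44 genes on the 6 arrays, with HGF bars left of vehicle bars at each time and the floor of 30 dotted; each bar is 1 array and has no error bar. HMMR, KIF18A, CENPE, NUF2, CDK1 and BUB1B had their lowest bar with HGF at 8 hours, whereas PLK1, CDC20 and UBE2C had theirs with vehicle at 8 hours (179.8, 2009 and 1255).

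Among spindle microtubule-associated proteins, 3 of 7 genes were lower. HMMR, a hyaluronan receptor that also binds microtubules at spindle poles, had the lowest ratio of the 44 genes. On its brighter probe set it read 817, 200.4 and 818 with HGF at 2, 8 and 24 hours, against 1014, 1055 and 752 with vehicle. The other probe set read 321, 122 and 339 with HGF and 462, 519.9 and 339.9 with vehicle. HGF at 8 hours was thus far below each vehicle array, and the gene was 4.73-fold lower than vehicle at 8 hours, 4.37-fold lower than at 2 hours and 3.23-fold lower than at 24 hours. ASPM, which focuses microtubules at the spindle poles, read 464, 196 and 476 with HGF, against 590.1, 737 and 503 with vehicle, on its brightest probe set. It was at least 3.05-fold lower at 8 hours, a bound since another probe set was at the floor with HGF. NUSAP1, a microtubule-bundling protein, read 1512, 1004 and 1291 with HGF and 1747, 1532 and 1422 with vehicle, and was 1.76-fold lower at 8 hours. DLGAP5, which stabilises kinetochore microtubules, was just outside the rule, with 794, 462 and 718 against 901, 876 and 576, a 1.90-fold lower value on its only probe set. CKAP2, which promotes microtubule growth, had log2 ratio -0.40, the mean of a probe set that read 184 with HGF and 420.0 with vehicle at 8 hours and of 2 probe sets at or under the floor on both arrays. TPX2, an activator of Aurora A, and PRC1, which crosslinks microtubules of the central spindle, differed little, at -0.04 and 0.14.

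The kinesin motors were the group with most genes lower at 8 hours, 6 of 9. KIF18A, a plus-end motor that damps chromosome movements, read 88.3, 31.8 and 64.1 with HGF, against 91.7, 138 and 71.0 with vehicle, so that the HGF array of 8 hours stood just above the floor, and was 4.34-fold lower. KIF11, the motor that pushes spindle poles apart, read 353, 148 and 254 with HGF and 398, 435 and 242 with vehicle, a 2.94-fold lower value at 8 hours. KIF15, which helps to keep the spindle bipolar, read 93.5, 52.2 and 105 with HGF and 135, 137 and 95.4 with vehicle. KIF14, a motor of cytokinesis, read 544, 301 and 561 with HGF and 602, 833 and 519.8 with vehicle. In all of these 4 motors the HGF array of 8 hours was the lowest of the 6. KIF23, the motor of centralspindlin, read 527, 268 and 318 with HGF and 488, 597 and 273 with vehicle, so its HGF value at 8 hours lay close to vehicle at 24 hours, and it was at least 1.67-fold lower than vehicle at 8 hours. KIF20B, another motor of cytokinesis, read 60.3, 36.6 and 77.2 with HGF and 108, 142 and 62.6 with vehicle on the 1 of its 3 probe sets that exceeded the floor. That probe set differed 3.87-fold at 8 hours, and the mean over all 3 by 1.57-fold. The remaining kinesins were KIF20A, which brings the passenger complex to the midzone (log2 ratio -0.28), KIF4A, a chromosome-bound motor (-0.09), and KIF2C, a microtubule depolymerase (0.41).

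At the centromere and kinetochore 3 of 5 genes were lower at 8 hours. CENPE, the kinetochore motor that carries chromosomes to the spindle equator, read 116, 58.7 and 165 with HGF, against 136, 217 and 134 with vehicle. NUF2, a subunit of the NDC80 complex that grips microtubules, read 163, 61.5 and 203 with HGF, against 198, 224 and 148 with vehicle. They were 3.69-fold and 3.64-fold lower at 8 hours. At 24 hours both stood higher with HGF than with vehicle of the same time, at log2 0.30 and 0.45, below the rule. CENPF, a large kinetochore protein, read 519, 212 and 469 with HGF and 730.1, 818 and 532 with vehicle on its brightest probe set, and was 2.03-fold lower over its 3 probe sets. NDC80, the partner of NUF2, read 651, 439.6 and 697 with HGF and 805, 797 and 598 with vehicle, which is 1.81-fold lower and just outside the rule on its single probe set. CENPA, the centromeric histone H3 variant, had log2 ratio 0.20.

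Both subunits of condensin among the 44 genes were lower at 8 hours. SMC4 read 950.0, 436 and 936 with HGF and 1016, 1359 and 969 with vehicle on its brightest probe set. SMC2 read 256, 101 and 206 with HGF and 330.2, 377 and 207 with vehicle. These partners of the core that compacts mitotic chromosomes were 3.42-fold and 3.41-fold lower. The dimmest of 3 SMC4 probe sets read 101, 32.9 and 54.8 with HGF and 48.8, 103 and 43.0 with vehicle, and was the only probe set of the 44 genes above the floor with a 2-fold difference at 2 hours, where HGF was higher. TOP2A, topoisomerase II alpha, which untangles sister chromatids, had log2 ratio -0.60, with its 2 probe sets above the floor 1.85-fold and 1.89-fold lower.

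Of the 5 genes of the spindle checkpoint, TTK and MAD2L1 were lower. TTK, the kinase that starts checkpoint signalling at unattached kinetochores, read 218, 152 and 305 with HGF and 325, 380.4 and 241 with vehicle, 2.50-fold lower at 8 hours. MAD2L1, the MAD2 protein that binds CDC20, read 805, 591 and 1181 with HGF and 920.3, 1071 and 722 with vehicle on its brightest probe set. Its mean difference at 8 hours was 1.88-fold, and 1 of its 3 probe sets passed 2-fold, at 2.02-fold, close to the threshold. The checkpoint kinases BUB1 and BUB1B (BUBR1) had log2 ratios of -0.33 and -0.45, and BUB3, their binding partner, -0.30. The probe sets of BUB1 differed in size, with the brightest 1.35-fold and another 2.30-fold lower. BUB1 has 5 probe sets, of which only these 2 exceeded the floor. With only probe sets above the floor it was lower by the rule. Those of BUB3 above the floor ranged from 1.03-fold to 1.76-fold lower.

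Both genes of cytokinesis were lower. ANLN, anillin, the scaffold of the contractile ring, read 1715, 683 and 1202 with HGF and 1555, 1345 and 1142 with vehicle. Its HGF value at 8 hours was the lowest of the 6 arrays, 1.97-fold below vehicle on this probe set and 2.98-fold on the other. ECT2, the exchange factor that activates RhoA at the cell equator, read 938, 545 and 842 with HGF and 847, 957 and 608 with vehicle on its brightest probe set, 1.76-fold lower at 8 hours. A second probe set read 445, 119 and 228 with HGF, against 472, 483 and 244 with vehicle, and was 4.06-fold lower, so the probe sets of ECT2 shared the direction and not the size.

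CDK1 was the only gene of 6 among the cyclins, CDK1 and CDC25 phosphatases that was lower. The kinase read 1256, 706 and 1348 with HGF and 1597, 1709 and 1285 with vehicle on its brightest probe set. Its mean difference at 8 hours was 2.15-fold and that of its 3 probe sets above the floor 2.42-fold to 2.99-fold. CCNA2, the cyclin A that acts before mitosis, had log2 ratio -0.34. CCNB2 was at -0.04, and CCNB1, the main cyclin partner of CDK1, was at 0.45. CCNB1 read 1503, 1739.7 and 1615 with HGF and 1627, 1226 and 1473 with vehicle, so the highest of the 6 values was with HGF at 8 hours and the lowest with vehicle at 8 hours. The phosphatases CDC25B and CDC25C, which remove the inhibitory phosphates of CDK1, were at 0.28 and -0.30.

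None of the 12 genes with a ratio above 1 at 8 hours met the rule. UBE2C, the ubiquitin-conjugating enzyme of the anaphase-promoting complex, read 1550.4, 2071 and 2122 with HGF and 1554, 1255 and 1659.7 with vehicle, 1.65-fold higher at 8 hours. CDC20, the activator of that complex, read 2083, 2849 and 2772 with HGF, against 2407, 2009 and 2958 with vehicle. PTTG1, securin, which the complex destroys to free separase, read 2155, 2528 and 2415 with HGF, against 2395, 1884 and 2569 with vehicle. For these 3 genes the vehicle array of 8 hours was the lowest of the 6. PLK1, the polo-like kinase of centrosomes and kinetochores, read 262, 262 and 283 with HGF, against 348, 179.8 and 266 with vehicle, and was 1.46-fold higher than vehicle at 8 hours but lower than vehicle at 2 hours, at log2 -0.41. AURKA, the Aurora kinase of spindle poles, was at 0.27, the mean of probe sets at 0.42 and 0.40 and of another under the floor on both arrays. The passenger proteins AURKB and BIRC5 (survivin) were at 0.06 and 0.10, but their probe sets disagreed in sign. AURKB was at 0.46 on its brighter and -0.33 on its dimmer probe set. BIRC5 was 1.61-fold higher on its brightest and at least 1.42-fold lower on its dimmest, a bound since HGF was under the floor there.

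Each HGF array was then set against every vehicle array, to see which differences rest on the vehicle array of the same time. HGF at 8 hours had 18 of the 44 genes lower and 0 higher than vehicle at 2 hours, where 10.9% of all genes were lower and 3.88% higher. Against vehicle at 24 hours it had 8 lower and 0 higher, where 2.3% of all genes were lower and 2.67% higher. The 8 genes were HMMR, KIF18A, CENPE, NUF2, SMC4, SMC2, ASPM and CENPF, and all 8 were lower by the rule against each of the 3 vehicle arrays, as were 1.81% of all genes. HGF at 8 hours stood below each vehicle array for 31 of the 44 genes, against 34.5% of all genes, and above each for 3 (KIF2C, CCNB1 and UBE2C), against 35.3%. The median log2 ratios of the 44 genes were -0.50, -0.53 and -0.28 against vehicle at 2, 8 and 24 hours. These 3 comparisons share the HGF array. With vehicle at 2 and 24 hours averaged as the reference, an alternative added after the data were seen that leaves out vehicle at 8 hours, 13 of the 44 genes were lower, against 5.06% of all genes, and the median was -0.38.

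**Figure D2:**
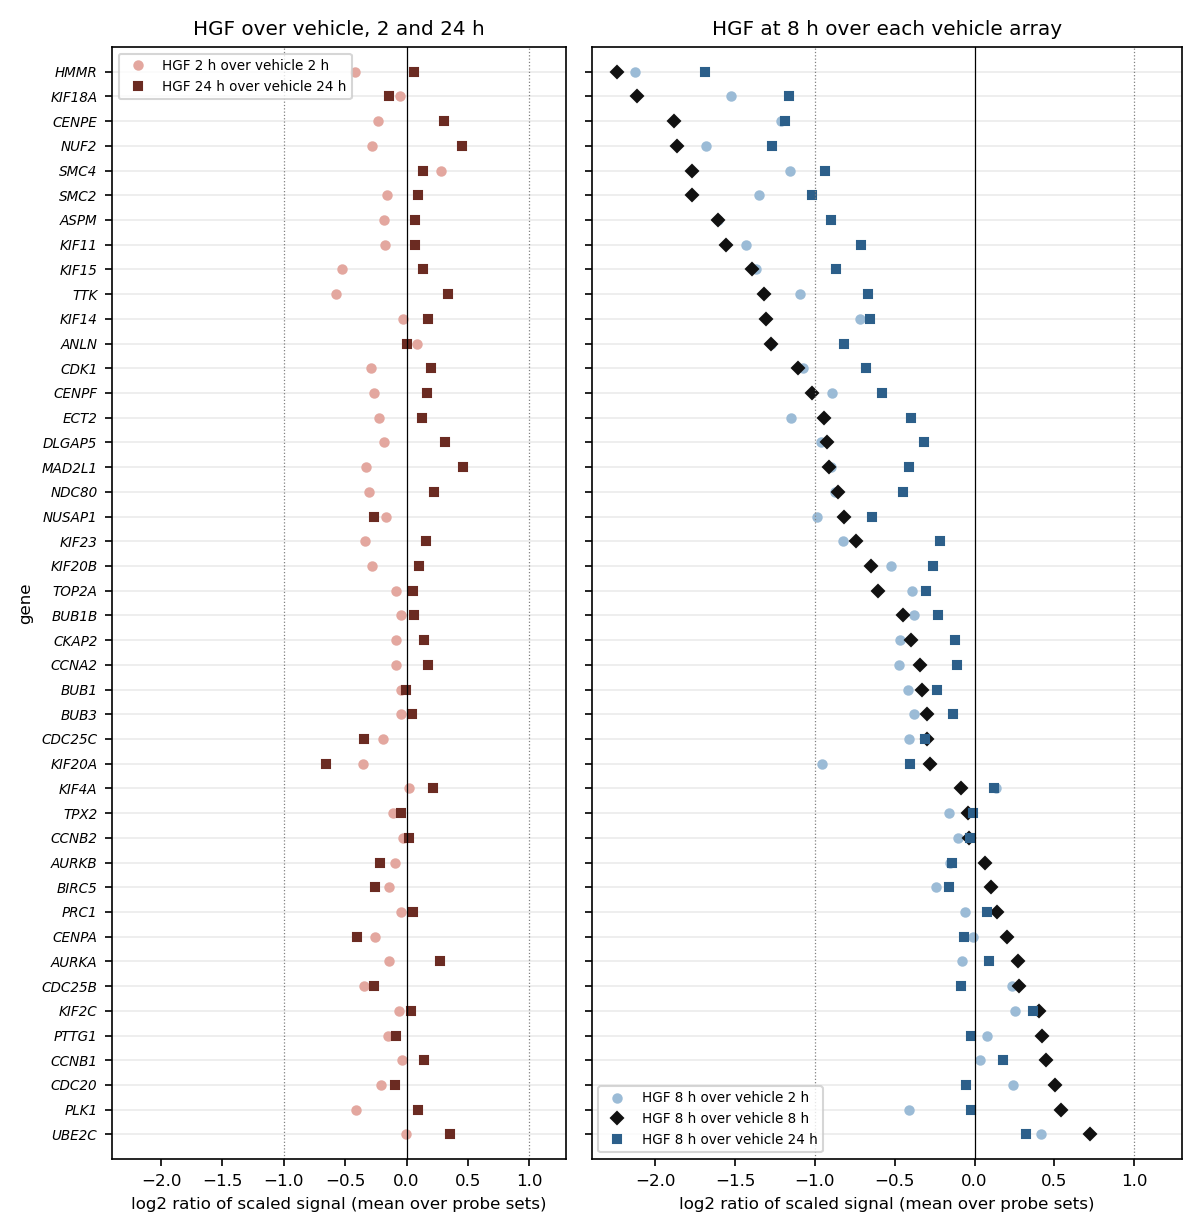
Log2 ratio of scaled signal (mean over probe sets) of each of the 44 genes, ordered by HGF over vehicle at 8 hours; the left panel shows HGF over vehicle at 2 and 24 hours, the right panel the HGF array of 8 hours over each vehicle array, and dotted lines mark 2-fold. Points of HMMR, KIF18A, CENPE, NUF2 and SMC2 lie left of 2-fold against all 3 vehicle arrays, and all points of the left panel lie between -0.65 and 0.46.

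The vehicle arrays were not alike in these genes. Between vehicle at 8 and at 2 hours 0 of the 44 genes were lower and 1 higher (SMC4, log2 0.62), where 0.361% of all genes were lower and 0.519% higher. Only the dimmest SMC4 probe set passed 2-fold (1.07), with the brightest at 0.42. Between vehicle at 24 and at 2 hours 1 was lower (ASPM, -0.71) and 0 higher, with 2.14% and 0.259% of all genes. Only the dimmest ASPM probe set passed 2-fold there (-1.03), with the brightest at -0.23. Between vehicle at 24 and at 8 hours 3 were lower (SMC4, ASPM and KIF23, at -0.84, -0.71 and -0.52) and 0 higher, with 5.5% and 0.454% of all genes. The brightest probe sets of these genes were at -0.49, -0.55 and -1.13, so SMC4 and ASPM passed 2-fold only on dimmer ones. The vehicle array of 8 hours was the highest of the 6 arrays for 17 of the 44 genes, against 27.9% of all genes, among them HMMR, KIF18A, CENPE and CDK1. It was the lowest of the 6 for 9 (BIRC5, PRC1, AURKA, KIF2C, PTTG1, CCNB1, CDC20, PLK1 and UBE2C), against 14.3%.

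After 2 hours 0 of the 44 genes were lower and 0 higher with HGF than with vehicle of the same time, where 0.102% of all genes were lower and 0.769% higher. The median log2 ratio was -0.17, against -0.02 for all genes, and 41 of the 44 genes were below 1, against 55.8% of all genes, but no gene was past -0.58, the value of TTK. KIF15 followed at -0.53, with HMMR at -0.42 and PLK1 at -0.41. Against vehicle at 8 hours 0 were lower and 0 higher (0.954% and 0.862% of all genes). Against vehicle at 24 hours 0 were lower and 2 higher, SMC4 (0.50) and ASPM (0.52), where 0.51% of all genes were lower and 3.03% higher. In both genes only the dimmest probe set passed 2-fold, at 1.23 for SMC4 and 1.02 for ASPM. Their brightest probe sets were at -0.03 and -0.12. The sign of the shift at 2 hours therefore depended on the vehicle array, with medians of -0.17, -0.09 and 0.07 against vehicle at 2, 8 and 24 hours.

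After 24 hours 0 of the 44 genes were lower and 0 higher with HGF than with vehicle of the same time, where 1.02% of all genes were lower and 1.91% higher. The median log2 ratio was 0.08, against 0.01 for all genes, and single genes ranged from -0.65 for KIF20A to 0.46 for MAD2L1. With vehicle at 2 and 8 hours as reference the median was -0.19 and -0.18, against -0.05 and -0.06 for all genes. KIF20A, on its only probe set, read 621, 411 and 345 with HGF at 2, 8 and 24 hours, against 796, 499 and 543 with vehicle, and so was lower with HGF at each time. Against vehicle at 2 hours HGF at 24 hours had 2 genes lower, KIF20A (-1.20) and ECT2 (-0.63), and 0 higher, where 3.17% of all genes were lower and 1.94% higher. The brightest probe set of ECT2 was at -0.01 and the others at -1.05 and -0.83. The last value is a bound, since HGF was under the floor on that probe set. Against vehicle at 8 hours HGF at 24 hours had 1 lower, KIF18A (-1.10), and 0 higher, where 4.85% and 1.95% of all genes were so. HGF at 24 hours stood below each vehicle array for 8 of the 44 genes, against 26.6% of all genes, and above each for 3 (KIF4A, AURKA and UBE2C), against 21.1%. Of the 4 genes lowest with HGF at 8 hours, HMMR (log2 0.06) and KIF18A (-0.15) were near vehicle of the same time at 24 hours, and CENPE (0.30) and NUF2 (0.45) were above it. With vehicle at 2 and 8 hours as reference, HMMR was at -0.38 and -0.49 and KIF18A at -0.52 and -1.10. CENPE was then at 0.28 and -0.39 and NUF2 at 0.04 and -0.14.

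**Figure D3:**
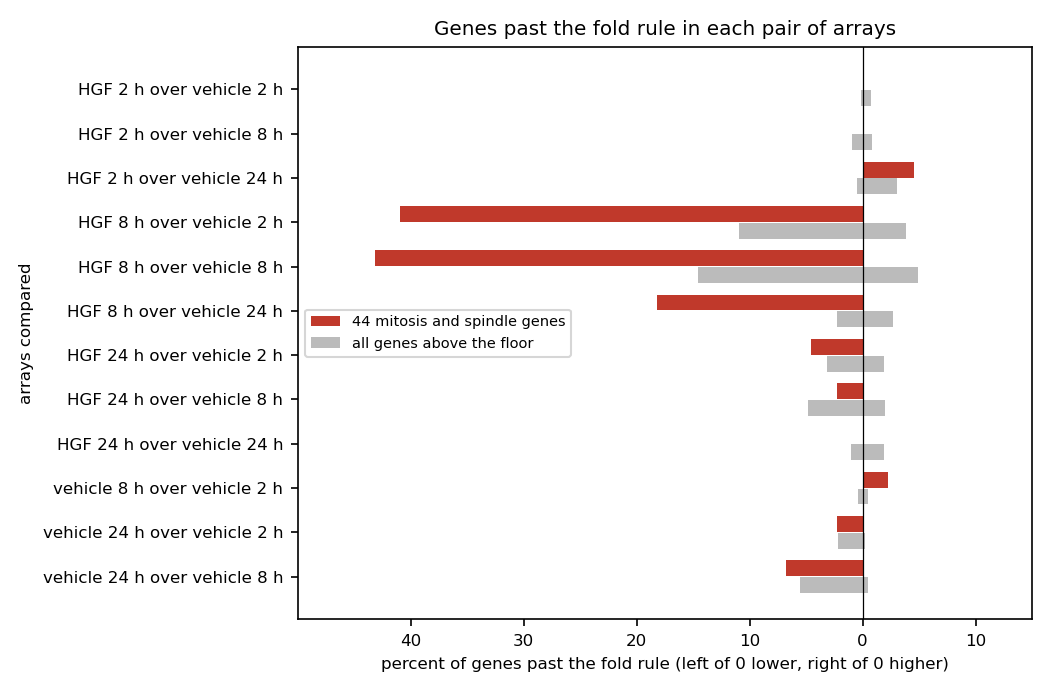
Percent of genes past the fold rule in each pair of arrays, lower left of 0 and higher right of 0, for the 44 mitosis and spindle genes and for all 10791 genes above the floor. Only the 3 pairs with the HGF array of 8 hours have more than 3 of the 44 genes past the rule (18, 19 and 8), and in these pairs all of them are lower.

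Whether HGF had 1 effect common to the 3 times was asked with limma, with time as a block and 10002 genes in the fit. At an adjusted p under 0.05, 0 of the 44 genes and 0 of all genes passed. At an unadjusted p under 0.05 the counts were 1 of 44 and 403 of all genes (4.03%). The 1 gene was KIF20A, with a log2 difference of -0.43 (SE 0.14, limma adjusted p = 0.912), lower with HGF in 3 of 3 pairs. In this fit the times stand in for replicates, so a difference at 1 time only adds to the error.

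The 44 genes differed widely in the annotated span from start to end of the gene (RefSeq, GRCh38.p14), which the choice of genes did not use. The 19 genes lower at 8 hours had a median span of 61.4 kb, the 25 others 19.9 kb, and the 12 genes with a ratio above 1 had 11.2 kb, with 29.6 kb over all genes above the floor. UBE2C spans 4.31 kb and CDC20 4.22 kb, whereas KIF18A spans 87.5 kb, CENPE 92.5 kb and KIF15 107 kb. There were exceptions on both sides, since CDK1 spans 16.5 kb and MAD2L1 11.2 kb and both were lower, while KIF4A, the longest at 131 kb, was at -0.09 and TPX2 at 62.5 kb was at -0.04. Across the 44 genes the Spearman correlation of span with the 8 hour ratio was -0.65, and across 10786 genes it was -0.35. Genes of an array are not independent replicates, and these coefficients are descriptions. With vehicle of the same time as reference, the same coefficient was 0.17 across the 44 genes at 24 hours and 0.02 at 2 hours. Between vehicle arrays it was 0.65 (8 over 2 hours) and -0.68 (24 compared with 8 hours), and a relation of span with level also existed without HGF. Against the vehicle arrays of 2 and 24 hours the coefficients of HGF at 8 hours were -0.54 and -0.51. With vehicle at 8 hours as reference, they were also -0.60 for HGF at 2 hours and -0.64 for HGF at 24 hours. HGF at 2 hours over vehicle at 24 hours gave 0.28, and HGF at 24 hours over vehicle at 2 hours gave -0.24.

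With all genes cut into 5 equal groups by span, the share lower at 8 hours was 3.66%, 8.43%, 14.9%, 21.5% and 24.8% from the shortest to the longest group. Of the mitotic genes 0 of 7, 2 of 9, 5 of 10, 9 of 14 and 3 of 4 were lower in these groups. Median log2 ratios of the mitotic genes were 0.20, -0.04, -0.67, -0.93 and -1.64, against 0.23, 0.08, -0.04, -0.19 and -0.23 for all genes in the same groups. The shortest mitotic genes had a median close to that of all genes of their span, and those over 21.3 kb a lower one, with 13 of 14 below the median of their group between 41.3 and 87.5 kb. The longest group holds only 4 of the genes, KIF18A, CENPE, KIF15 and KIF4A.

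**Figure D4:**
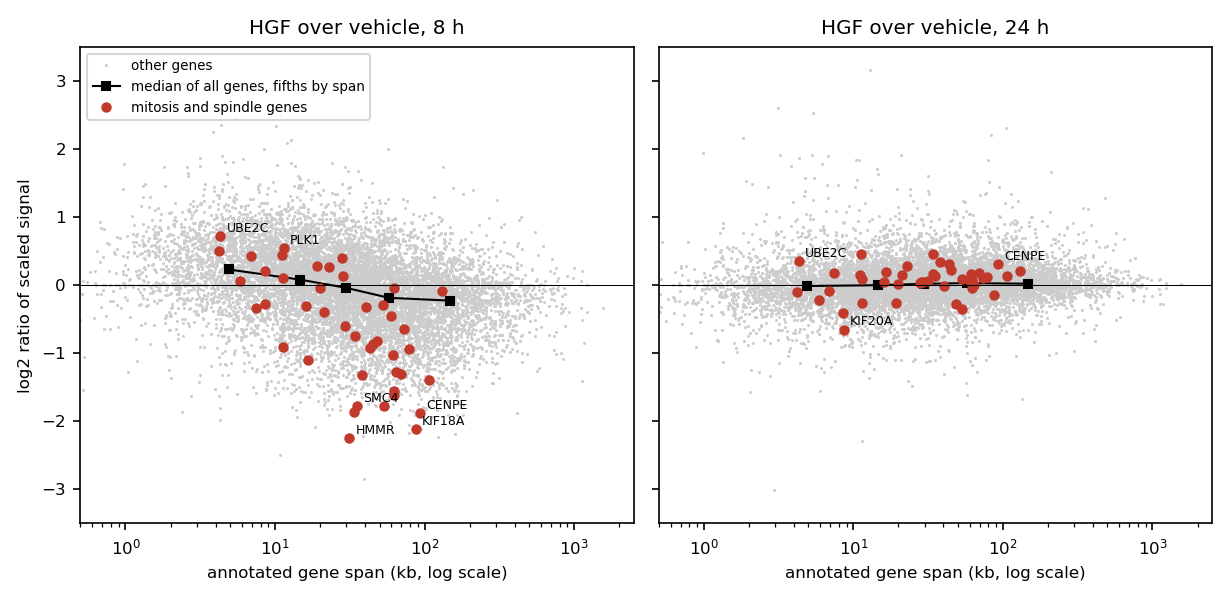
Log2 ratio of HGF over vehicle at 8 hours (left) and 24 hours (right) against annotated gene span in kb on a log axis, for the 44 mitosis and spindle genes, other genes above the floor, and the median of all genes in 5 groups by span; 19 genes lie outside the axes. At 8 hours the mitotic genes run from UBE2C (4.31 kb, 0.72) to KIF18A (87.5 kb, -2.12), and at 24 hours they lie between -0.65 and 0.46 at every span.

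Other lists of cell cycle genes were set beside the 44, and their counts are to be read against the 14.6% of all genes that were lower and the 4.93% higher at 8 hours. Of 63 other mitotic genes above the floor 18 were lower and 0 higher at 8 hours, with a median log2 ratio of -0.40. The lowest were DEPDC1 (-1.90), CENPK (-1.90), a subunit of the constitutive centromere network, STAG2 (-1.71), a cohesin subunit, and ZWILCH (-1.70), a subunit of the complex that brings dynein to kinetochores. Of 13 subunits and regulators of the anaphase-promoting complex 3 were lower and 0 higher, with a median of -0.23. Their ratios ranged from -1.46 for ANAPC4, followed by CDC27 at -1.02, to 0.70. Of 46 genes of DNA replication and S phase 4 were lower and 1 higher, with a median of 0.04. The largest ratios there were those of CCNE2, cyclin E2 (-1.40, a bound), CDC7 (-1.32), a kinase that fires origins, and RFC1 (-1.04), a subunit of the clamp loader. Of 18 kinesins outside the mitotic set 4 were lower and 1 higher, led by KIF5B (-1.57), the conventional kinesin of cargo transport. Among 23 regulators of mitotic gene transcription 3 were lower and 2 higher. CDKN1A, the CDK inhibitor p21, was higher with HGF at 2, 8 and 24 hours, at log2 2.14, 2.50 and 1.84. MYBL2, a factor that binds CHR promoters with MuvB, was at 1.25 at 8 hours, NFYB, a subunit of NF-Y, was lower at -1.58 (a bound), and E2F8, a repressor of E2F targets, was at -0.85. These counts depended on the vehicle array. With vehicle at 2 hours as reference, lower genes numbered 17, 3, 3, 2 and 2 in the order given, with 10.9% of all genes. With vehicle at 24 hours they numbered 7, 0, 1, 0 and 1, with 2.3%. There CCNE2 was at -0.14, CDC7 at -0.26 and MYBL2 at 0.45, while DEPDC1 was at -1.16 and CDKN1A at 2.22.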

How the data were processed

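RNA of DU145 cells given 25 ng/ml HGF or vehicle for 2, 8 and 24 hours was hybridised to 6 Affymetrix U133plus2.0 arrays, 1 per condition. The authors deposited linear intensities, 1 per probe set and array, and the submitters' processing notes give MAS5. Its version and scaling target are not given in the sources used here. Deposited array means ranged from 149.1 to 205.4, so arrays were scaled to 150 with a floor of 30. The study's methods name RMA quantile normalization before these steps, which the deposited values do not show and which differs from MAS5. Quantile normalization of the deposited values was run as an alternative, and RMA itself was not run. Of 54675 probe sets 41091 had 1 gene symbol and 1801 had several. Of those with several, 7 listed 1 of the 44 genes and were not used. The 44 genes, the lists and the tests were chosen with earlier results of these data known. Values in 6 arrays are given for genes past the fold rule at 1 or more times, on the brightest probe set, and for others chosen after their values were seen. Other genes are given by counts and ratios, and each list by up to 4 of its largest ratios at 8 hours. Log2 values were fitted with limma (lmFit, eBayes; genes exceeding the floor in 3 or more arrays; Benjamini-Hochberg). The number of arrays limits the precision. The fold rule and the limma step were tested on simulated data. Alternatives were quantile normalization, no floor or one of 60, ratios centred on all genes, the brightest probe set, only probe sets above the floor, no probe sets ending in _s_at or _x_at, and the mean of 3 vehicle arrays as reference. For limma they were no block, a variance trend, no filter and leaving out each time. Motifs were counted in RefSeq windows. limma 3.58.1 ran in R 4.3.3, and the other steps in Python 3.11.15 with pandas 2.3.3, scipy 1.17.1 and numpy 2.4.6, with figures by matplotlib 3.10.9.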

Additional observations from a re-analysis of the deposited data

Results flagged for a closer look

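The median log2 ratio of HGF over vehicle of the 44 genes had opposite signs at 8 hours (-0.53) and 24 hours (0.078), and at 2 hours (-0.17) and 24 hours (0.078). The sign at 24 hours depended on the vehicle array, with medians of -0.19, -0.18 and 0.078 against vehicle at 2, 8 and 24 hours. Over the 3 vehicle arrays the SD of the genes' median deviation was 0.16, larger than the 24 hour median. Of the genes past the fold rule at 8 hours, 5 had ratios of at least 1.2-fold in the opposite direction at another time. CENPE, a kinetochore motor, was at -1.88 at 8 hours and 0.30 at 24 hours, and SMC4, a condensin subunit, was at 0.28 at 2 hours and -1.77 at 8 hours. At 2 hours the brighter 2 of its 3 probe sets were at -0.10 and -0.12, and the positive mean came from the dimmest, at 1.05. NUF2, a kinetochore subunit, was at -1.87 at 8 hours and 0.45 at 24 hours, TTK, a checkpoint kinase, at -1.32 and 0.34, and MAD2L1, which binds CDC20, at -0.91 and 0.46. These 24 hour ratios depended on the vehicle array. Against vehicle at 2 and 8 hours, HGF at 24 hours was at 0.28 and -0.39 for CENPE and 0.04 and -0.14 for NUF2. It was at -0.09 and -0.32 for TTK and -0.02 and -0.04 for MAD2L1. The difference between the times was not tested, since there is 1 array per condition.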

How the results depend on the processing

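At 8 hours 9 genes (CDK1, CENPE, NUF2, KIF11, KIF15, HMMR, ASPM, SMC2 and SMC4) were lower under all 9 alternatives, and the count of lower genes ranged from 13 to 21, against 19. The share of all genes lower ranged from 5.06% with vehicle at 2 and 24 hours as reference to 26.9% with no floor, against 14.6%. With no floor 19 of the 44 genes were lower. The median was -0.71 with the brightest probe set and -0.78 with only probe sets above the floor, against -0.53. The latter added BUB1 and CKAP2 to the lower genes. With vehicle at 2 and 24 hours as reference, PLK1, AURKB, BIRC5, CENPA and KIF4A changed sign, and KIF4A did so with quantile normalization. Leaving out _s_at and _x_at probe sets left 36 of the 44 genes, KIF18A and KIF20B not among them, with 13 lower and without the call of CENPF, ECT2, NUSAP1 and KIF23. Of all genes 13.7% were lower there. With no floor, 3 genes were lower at 2 hours and 3 at 24 hours, and 2 were higher at 8 hours, each against 0, with 6.79%, 9.66% and 9.83% of all genes. For HGF at 2 hours over vehicle at 24 hours, 0 genes were higher with quantile normalization or centring, against 2. Of all genes 1.73% and 2.60% were higher in these. For HGF at 24 hours, lower genes numbered 1 with either against vehicle at 2 hours, where there were 2, and 0 with quantile normalization against vehicle at 8 hours, where there was 1. The shares of all genes lower were 1.66% and 2.47% against vehicle at 2 hours, and 2.28% against vehicle at 8 hours. Between vehicle arrays, lower genes numbered 1 with quantile normalization for 8 over 2 hours, against 0, 0 with either for 24 over 2 hours, against 1, and 1 with either for 24 over 8 hours, against 3. Of all genes 0.491% were lower for 8 over 2 hours. With quantile normalization and centring 0.741% and 1.33% were lower for 24 over 2 hours, and 2.06% and 3.63% for 24 over 8 hours. The cause was not tested. In limma 0 of the 44 genes had an adjusted p under 0.05 under every alternative, each left-out time included, while over all genes 3 had one without the block and 2 with the brightest probe set. The limma fit paired HGF with vehicle by time through the block, and without it the count was also 0. The 14 probe sets at the floor on every array give no level.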
